A study of Homo sapiens with 6 samples.

Results

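Accessible chromatin that lies in exons but away from promoters was examined in EndoC-βH3 cells, a human pancreatic beta cell line. ATAC-seq libraries, in which a transposase cuts open DNA and tags it for sequencing, had been made from 6 samples of 100000 cells each. In the 3 senescent libraries, the cells had been treated for 3 weeks with 4-hydroxytamoxifen (4-OHT), which activates a Cre recombinase fused to an estrogen receptor and removes the immortalising transgenes of the line. The 3 non-senescent libraries came from the same line without this treatment, so that both groups share the line's genetic background, and the senescent state is tied to transgene removal.

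The authors' table listed 108542 regions of open chromatin of the human genome build hg38, of which 105696 were on the 22 autosomes. A region was taken as exonic and away from promoters when its midpoint fell in a coding or untranslated exon of the canonical transcript of a protein-coding gene (GENCODE 44), and when it overlapped no stretch of 2 kb on either side of a transcription start site (TSS) of such a gene. This rule uses position only. It gave 2457 regions, 2.32% of those on the autosomes. Of these, 1255 had their midpoint in a coding exon, 1186 in a 3′ untranslated region (UTR) and 16 in a 5′ UTR. The other regions were 33115 in introns, 50679 between genes and 19445 at promoters. The table gives 1 mean signal per region, the average of normalised read counts over all 6 libraries, with no value for a single library and so no replicate spread. The table's columns of the authors' own comparison of senescent with non-senescent cells were not used, and the groups are not compared here. All intervals below cover counting error only, and no test was run, since regions are not replicates.

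Exons can hold regulatory DNA besides the code for a protein or a transcript end. Transcription factors may bind within a coding exon, so that the same bases are read both as codons and as a binding site, and enhancers of one gene may lie in an exon of a neighbour. A 3′ UTR is transcribed but not translated, so its DNA sequence is not bound to codons. CTCF, the zinc finger protein that anchors chromatin loops and insulates domains, binds at many places across the genome, genes included. In beta cells, factors such as NEUROD1, MAFA, PAX6, RFX6 and FOXA2 bind at enhancers of genes for insulin production and release.

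The line was checked against cell type markers at promoters. All 12 beta cell markers, among them INS, PDX1 and NKX6-1, had a promoter region, with mean signals from 183.5 at IAPP to 7894 at INS. Of the 5 immune markers 2 had a promoter region, as had 1 of the 3 endothelial markers and 4 of the 5 acinar and duct markers. The immune markers PTPRC, CD3E and LYZ, the endothelial markers CDH5 and VWF and the acinar marker PRSS1 had none, while CPA1 of acinar cells had 2101, KRT19 of duct cells 1059 and the immune marker CD14 633.9. Of the 3 liver markers 2 had a promoter region, the highest being APOA2 with 1990, and ALB had none. All 4 alpha cell markers and all 3 delta cell markers also had a promoter region, at 53.4 to 1340 and 195.4 to 2579, so that markers of endocrine sister cells were not closed in this line. Their part in the exonic regions was not tested.

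The CTCF motif, searched with up to 2 mismatches, was found in more exonic regions than any of the other 11 motifs, most of which had to match exactly, so examples of it are shown first. With at most 1 mismatch it was found in 8.84% of coding and 12.7% of 3′ UTR regions, fewer than the E-box of NEUROD1. Each sequence is 30 bases of hg38 around the match, read in the direction of the motif, with the bases of the match in capitals. In the first 7 the match holds no mismatch to the motif, and these were picked as the strongest such regions that could be shown, by the authors' mean signal, with 4 from coding exons and 3 from 3′ UTRs.
KCNJ9, a potassium channel subunit, exon 2, coding (chr1:160084249-160084278, minus strand): gcgatcagCCACCAGATGGCGCcgaagaag
AHSG, a liver plasma protein, exon 4, coding (chr3:186617213-186617242, minus strand): cagcggggCCAGCAGGGGGCAGtcttggca
SLC8A3, a sodium-calcium exchanger, exon 7, coding (chr14:70046182-70046211, plus strand): tgcagagcCCAGTAGATGGCGGccacggac
TECPR2, a protein of the secretory pathway and autophagy, exon 10, coding (chr14:102438172-102438201, plus strand): gatgctgtCCAGCAGGTGGCAGtctcgccc
MED29, a Mediator subunit, exon 4, 3′ UTR (chr19:39397812-39397841, plus strand): agcgggagCCAGCAGGGGGCAGcagaggcc
GSTO2, a glutathione transferase, exon 7, 3′ UTR (chr10:104300865-104300894, minus strand): acccagagCCAGCAGATGGCAGggccagac
TBC1D24, a regulator of vesicle traffic, exon 8, 3′ UTR (chr16:2501359-2501388, minus strand): atgcggcaCCAGCAGGGGGCACcacaggcc
S1PR3, a sphingosine-1-phosphate receptor, exon 2, 5′ UTR, 1 mismatch (chr9:89001146-89001175, minus strand): tccaaaatCCACGAGAGGGCGCcccaggaa
The regions around these matches had mean signals of 697.4 at KCNJ9, 482.6 at AHSG, 356.4 at SLC8A3 and 232.8 at TECPR2. Those in 3′ UTRs reached 1045 at MED29, 929.8 at GSTO2 and 620.3 at TBC1D24, and that at S1PR3 had 116.5. The match at MED29 and that at TECPR2 run along the coding strand, whereas the other 6 run against it. In KCNJ9 the match lay 30 bp from the middle of the region and within its coding sequence, and the same bases encode part of the channel.

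By their midpoints, open regions were denser in exons away from promoters than in introns. Coding exons held 51.98 regions per Mb of sequence (95% exact Poisson interval 49.1 to 54.9), against 39.2 in 3′ UTRs (37.0 to 41.5), 34.6 in introns (34.2 to 35.0) and 31.3 between genes (31.04 to 31.6). The 16 regions in 5′ UTRs amounted to 50.3 per Mb, with an interval from 28.8 to 81.7 that spans the values of the other exon classes. Promoter windows held 153.7 per Mb. There, every region that overlapped a window was counted, wherever its midpoint lay, so that value is not on the same footing. The value for coding exons rests on the midpoint, since many of these regions reach into introns. With regions placed by the class of over 50% of their bases, there were 27.5 per Mb of coding exon and 38.4 per Mb of 3′ UTR, the former below the 34.6 of introns by midpoint. Counted in bases, open regions covered 3.02% of coding exons, 2.30% of 3′ UTRs and 1.89% of introns. The sequence itself had a GC content of 50.6% in coding exons, 41.9% in 3′ UTRs, 41.1% in introns and 48.6% in promoter windows. The part of base composition in these densities was not tested here.

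**Figure D1:**
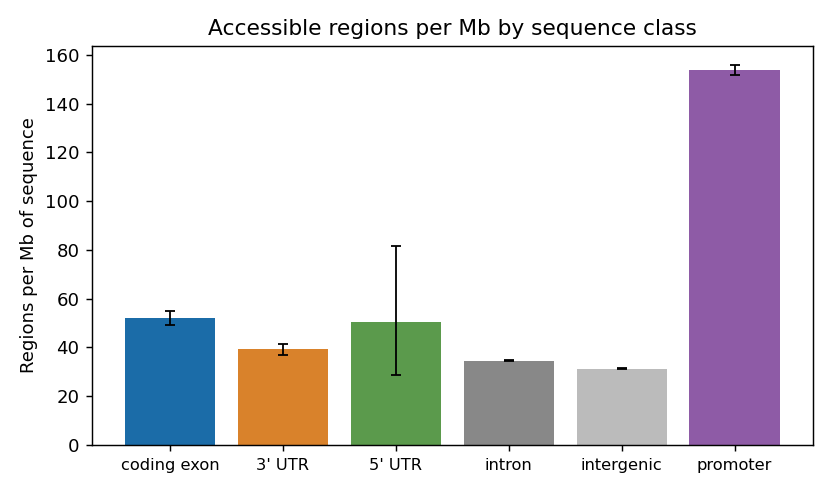
Accessible regions per Mb of sequence (vertical axis) for 6 classes of autosomal sequence, with 95% exact Poisson intervals as error bars. Bars are the regions assigned to a class by their midpoint, divided by its length outside promoter windows. The promoter bar instead counts every region that overlaps a promoter window, divided by the length of the windows. Coding exons stood at 51.98 and 3′ UTRs at 39.2, both above introns at 34.6, while promoter windows stood at 153.7.

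Regions per base of coding sequence differed by exon length and were densest in exons of middle length. Length here is that of the whole exon, with any untranslated part. No interval was computed for these groups. In coding exons shorter than 200 bp there were 600 regions, or 46.6 per Mb, in those of 200 to 1000 bp there were 353, or 65.03 per Mb, and in those longer than 1000 bp there were 302, or 51.5 per Mb. The exons that carried a region had a median length of 204 bp, against 134 bp over all 188160 coding exons, of which 0.661% carried one. Among 3′ UTRs, 5.77% of the 19210 exon pieces carried a region. The whole exons of these pieces, coding part included, had a median length of 3417 bp, against 1379 bp over all. Both totals include exons near a TSS, where the rule allows no region, which lowers both shares. A longer exon has more room for a midpoint, so these lengths follow in part from the rule.

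Most regions in coding exons reached beyond the exon. Their median share of exonic bases was 54.1%, 57.5% covered their exon from end to end, and only 17.2% lay wholly inside it. In short exons, under 200 bp, the exonic share had a median of 33.3%, so that introns on both sides made up most of the open stretch. In contrast, 82.6% of the regions in 3′ UTRs lay wholly in the exon, and 10.96% crossed the annotated transcript end.

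Within coding sequences, density rose towards the stop codon. When each coding sequence was divided into 5 equal parts from start to stop codon, the part nearest the start held 35.6 regions per Mb (95% exact Poisson interval 29.6 to 42.4), and the following parts held 43.7, 48.7, 54.1 and 67.7 (61.1 to 74.9). These densities were taken over coding sequence outside promoter windows, so the smaller amount left near the start was accounted for only in part. Regions that reached into a window were left out, while the bases next to it stayed in the length. How far this lowered the value of the part nearest the start was not tested. Coding sequence in last exons held 62.4 regions per Mb and that in internal exons 48.8. Median mean signals of the 5 parts lay between 92.96 and 102.4 and did not follow this order. In 3′ UTRs the same division gave 34.7, 42.05, 40.4, 41.2 and 34.1 regions per Mb, with lower values in both end parts. The last or only exon of the transcript held 60.8% of all 2457 regions, since nearly every 3′ UTR lies in it.

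**Figure D2:**
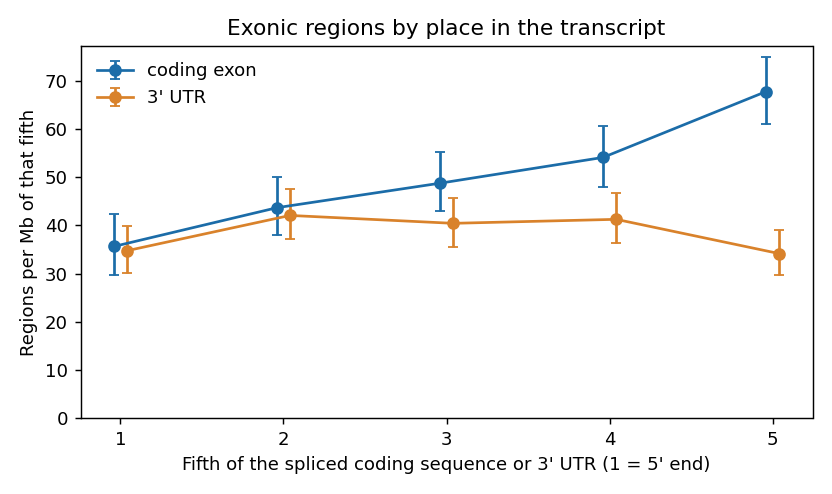
Exonic regions per Mb (vertical axis) in each of 5 equal parts of the spliced coding sequence or 3′ UTR, counted from the 5′ end (horizontal axis), with 95% exact Poisson intervals as error bars. Points for coding exons climb from 35.6 to 67.7, while those for 3′ UTRs stay between 34.1 and 42.05.

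By the rule, no region lay within 2 kb of a protein-coding TSS. The nearest protein-coding TSS was a median of 12884 bp from the midpoint of regions in coding exons and 13296 bp from that of regions in 3′ UTRs, and 5.90% and 6.07% of them were over 100000 bp away. A TSS of a long noncoding RNA was found inside or within 500 bp of 3.03% of coding regions and 3.88% of 3′ UTR regions. Whether these are promoters of such genes was not tested. In the 500 bp just outside of the 2 kb limit of the rule, 83 exonic regions had a median mean signal of 149.5, while the exonic regions in the 500 bp just inside of it, which were left out, had 119.9. The first outside were in TMEM79 at 2006 bp, with a mean signal of 1651, in the homeobox gene NKX2-3 at 2008 bp, with 90.5, and in DDN at 2017 bp, with 99.6. The last inside were in FOXB1 at 2000 bp, with 17.9, in IPO9 at 1998 bp, with 16.4, and in HES7 at 1994 bp, with 130.9. Farther out, the 2374 remaining regions had a median of 91.9.

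The mean signal of exonic regions was close to that of introns and far below that of promoters. Its median was 95.55 in coding exons, 92.5 in 3′ UTRs and 109.2 in 5′ UTRs, against 82.4 in introns, 72.4 between genes and 514.5 at promoters. The quartiles were 41.4 and 243.1 in coding exons and 41.3 and 230.8 in 3′ UTRs, so that the spread within each class was much wider than the difference between them. Widths were also alike, with medians of 505 bp in coding exons and 479 bp in 3′ UTRs against 469 bp in introns and 974 bp at promoters. A wider region collects more reads. Per kb of width, the median mean signal was 203.1, 198.2 and 180.2 in coding exons, 3′ UTRs and introns and 512.8 at promoters. In all, 87 exonic regions (3.54%) had a mean signal over 1000, against 28.8% of promoter regions, and 14 had one under 10.

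**Figure D3:**
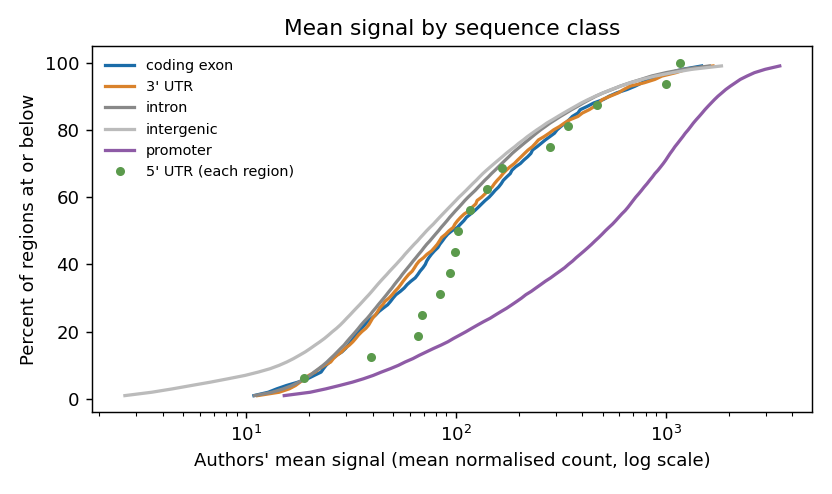
Percent of regions (vertical axis) with a mean signal at or below the value on the horizontal axis, which is logarithmic, for regions in coding exons, 3′ UTRs, introns, intergenic sequence and promoters, and for each of the 16 regions in 5′ UTRs. Lines for coding exons and 3′ UTRs nearly coincide, with medians of 95.55 and 92.5, and the promoter line lies to their right with a median of 514.5.

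The strongest coding region was in exon 2 of EFNA3, an ephrin ligand for cell contact signals (chr1:155084572-155085904), with a mean signal of 2987. Those next in order were in exon 4 of TP53INP2, an autophagy factor (chr20:34708680-34710194), with 2812, in exon 4 of CCDC183 (chr9:136798870-136801441) with 2729, in the last exon of the sodium-phosphate transporter gene SLC34A3 (chr9:137235482-137237036) with 2686, and in exon 3 of MATN1, a cartilage matrix gene (chr1:30718045-30719584), with 2460. All 5 were wide, between 1332 and 2571 bp, with a GC content of 66.3 to 70.7%, and 4 of them met the usual measure of a CpG island in their middle 300 bp. A start site of a long noncoding RNA lay within 500 bp in CCDC183 and MATN1. The weakest coding region, in exon 3 of TTC6, had 4.74.

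In 3′ UTRs, the strongest region was in SDR42E2 (chr16:22189442-22191522), with a mean signal of 4619, a GC content of 71.7% and a CpG-rich middle. The 4 next in order were not CpG-rich. They lay in GINS4, a subunit of the replicative helicase, with 2755 and a GC content of 40.7%, in the signalling adaptor gene CRKL (chr22:20952605-20953376) with 2564, in IQGAP3, a scaffold protein of dividing cells (chr1:156525191-156526679), with 2487, and in NOL4L (chr20:32445581-32446599) with 2404. Each of these was 12117 bp or more from a protein-coding TSS. The weakest, in SRRM3, a splicing regulator of neurons and endocrine cells, had 5.22.

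All 16 regions in 5′ UTRs lay in exons after the first, since the rule removes the promoter, and 13 genes had theirs in exon 2. PELO, a ribosome rescue factor (chr5:52799359-52801035), had the highest mean signal, 1162, and a start site of a long noncoding RNA was within 500 bp. ANXA4, a calcium-dependent membrane-binding protein (chr2:69780868-69782189), followed with 999.3, but only 4.16% of that region was exonic. LHFPL2 had 471.4, FAM110B 342.6 and TMEM63C 279.6. Lower values were found in ZFP57, which keeps imprints (165.6), in the endoderm factor GATA4 (140.7), and in S1PR3 (116.5), USF3 (101.95), LINC02218 (99.3) and LIFR (93.9). ZDHHC1 had 84.2, KBTBD2 68.6, GPBP1L1 65.8, ZNF76 39.5 and STEAP3, a metalloreductase of iron uptake, 18.9.

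At least 1 exonic region was found in 2169 of 18764 autosomal protein-coding genes, or 11.6%. Of these, 1921 genes had 1, 211 had 2, 35 had 3 and 2 had more. HYDIN, a protein of motile cilia, had 5, all in coding exons among its 86 exons, with mean signals of 29.5 at exon 16, 793.1 at exon 27, 264.5 at exon 30, 445.6 at exon 43 and 236.7 at exon 85. HYDIN has a near-identical copy elsewhere in the genome, so that reads from both may be hard to tell apart and these values are uncertain. DOCK4, an activator of Rac signalling, had 4, from 59.7 at exon 41 to 333.7 at exon 53. Among the genes with 3, the highest signals were in ASXL3, a chromatin regulator, where a region of 2785 bp wholly inside the last exon reached 1454, and in SYNE1, a linker of nucleus and cytoskeleton, with 1413 at exon 98 and 1305 at exon 56. RAPGEF1, an exchange factor for Rap1, had 1284 in its 3′ UTR. Long genes with many exons offer more places, and no correction for this was made here.

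The base composition of the regions set coding exons apart from 3′ UTRs. In the middle 300 bp, the median GC content was 57.3% (quartiles 46.2 and 66) in coding regions, 50% (43 and 58.7) in 3′ UTRs and 49.7% in 5′ UTRs, against 45.3% in introns, 44.3% between genes and 65.7% at promoters. A CpG-rich middle, with GC content over 50% and more than 0.6 of the CpG dinucleotides that base composition predicts, was found in 23.7% of coding regions and 5.90% of those in 3′ UTRs. It was found in 2.52% of intronic and 66.3% of promoter regions. Open regions were richer in GC than the sequence of their class as a whole, which had 50.6% in coding exons away from promoters, 41.9% in 3′ UTRs and 41.1% in introns.

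Regions in exons held a CTCF motif more often than those in introns. With up to 2 mismatches to a motif of 14 bases, on either strand of the middle 300 bp, a match was found in 372 of 1255 coding regions, or 29.6% (95% Wilson interval 27.2 to 32.2%). It was found in 28.5% of 3′ UTR regions (26 to 31.1%), 17.2% of intronic, 17.8% of intergenic and 22.4% of promoter regions, and in 18.7% of all regions. The motif read backwards, which keeps the base composition but is no binding site, was matched in 7.49% of coding, 3.63% of 3′ UTR and 2.84% of intronic regions. It requires a CpG that the motif itself does not, so it is no equal measure of random matches. In all coding sequence outside promoter windows, open or not, the motif had 479.5 matches per Mb and its backwards form 198.7. In introns these were 204.4 and 187.3. Of the 16 regions in 5′ UTRs 2 held a match. Of the 372 coding regions with a match, 234 had it within the exon of the midpoint.

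The shares also differed by GC content within each class. Among regions with a GC content under 45%, a CTCF match was held by 10.5% of coding regions (95% Wilson interval 7.38 to 14.8%), 14.6% of 3′ UTR regions (11.4 to 18.5%) and 9.66% of intronic regions. Between 45 and 55% the shares were 20.3%, 28.6% and 19.5%. Between 55 and 65% they were 42.07% (36.8 to 47.5%), 37.2% (32.1 to 42.5%) and 32.0%, and at 65% or more they were 40%, 52.4% (42.9 to 61.8%) and 40.8%. At like GC content, the share in coding regions was therefore close to that of introns, except between 55 and 65%, while that of 3′ UTRs was higher than that of introns in each of the 4 bins.

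The CTCF motif was also counted over the whole autosomes, to see how many of its matches were open. With at most 1 mismatch, coding exons outside promoter windows held 1088 matches, or 45.1 per Mb, against 29.5 per Mb in 3′ UTRs and 18.9 in introns. Of the coding matches 14.9% lay in an open region, against 24.5% in 3′ UTRs, 17.2% in introns, 17.5% between genes and 41.8% in promoter windows. With up to 2 mismatches, 6.95% of coding matches were open, against 8.54% in 3′ UTRs and 5.54% in introns. Coding exons thus had the most matches per base of the 3, and the open share was highest in 3′ UTRs at both limits, while the order of coding exons and introns turned between them. The motif read backwards with at most 1 mismatch was open at 5.97% of its 318 coding matches and 3.19% of its 188 matches in 3′ UTRs.

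Within coding exons, CTCF matches had a preferred reading frame whether open or not. Of 10679 matches with up to 2 mismatches that lay within 1 coding piece, 53.4% had their first base, in the direction of the gene, at position 3 of a codon. Of the 745 of these in open regions, 55.2% did, with 23.5% at position 2 and 21.3% at position 1. Of the coding matches in open regions, 226 ran against the gene and began at position 3, and 185 ran along it and did so. The motif read backwards showed the same preference, with 64.0% of 4584 matches at position 3, so that the preference was also seen with letters that are no CTCF site. Among the coding regions with a match, 211 of 372 had it against the gene and 161 along it, and 35.2% had it within 50 bp of the midpoint. In 3′ UTRs 174 of 338 ran against the gene, and 39.9% lay within 50 bp of the midpoint. Not all of these matches were exonic. Within the exon of the midpoint lay 62.9% of those of coding regions and 99.1% of those in 3′ UTRs. The share of coding regions with a match was 32.7% at a mean signal under 50 and 23.02% at 500 or more (95% Wilson intervals 28.2 to 37.6% and 16.8 to 30.7%), and in 3′ UTRs it was 25.1% and 26.2%.

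The AP-1, forkhead and homeodomain motifs were less frequent in exonic than in intronic regions. The AP-1 motif (TGANTCA, which reads the same on both strands) was found in 7.73% of coding regions (95% Wilson interval 6.38 to 9.34%) and 8.68% of 3′ UTR regions (7.21 to 10.4%), against 11.95% of intronic regions and 9.86% of all. Read backwards it was found in 4.62%, 8.26% and 8.78% of them. Of all AP-1 matches in coding exons 2.14% were open, less than the 3.02% of coding bases that open regions covered. The forkhead motif (TGTTTAC) was found in 4.06% of coding and 7.67% of 3′ UTR regions, against 9.87% of intronic regions. The homeodomain motif (TAATTA, the same on both strands) was found in 4.78%, 8.35% and 11.1%. Both are rich in A and T. Read backwards, the forkhead motif was matched in 4.38% of coding, 6.07% of 3′ UTR and 7.71% of intronic regions. The homeodomain motif read backwards was matched in 4.62%, 5.90% and 10.9%. Read backwards, both were thus also less frequent in exonic than in intronic regions. Over all regions the forward shares were 8.25% for the forkhead and 8.65% for the homeodomain motif, close to those of 3′ UTR regions.

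Homeodomain motifs are bound by PDX1 and NKX6-1, and forkhead motifs by FOXA2. The HNF1 motif (up to 1 mismatch) was likewise found in few coding regions, 0.319%, against 1.18% of 3′ UTR and 1.02% of intronic regions. The E-box of NEUROD1 (CAGATGG) was found in 14.0% of coding regions (95% Wilson interval 12.2 to 16.05%) and 15.4% of 3′ UTR regions (13.5 to 17.6%), against 15.0% of intronic, 5.58% of promoter and 12.1% of all regions, and read backwards in 1.35% and 1.26% of coding and 3′ UTR regions. The MAF motif (TGCTGAC, which can overlap an AP-1 match) was found in 9.24% and 7.17% of coding and 3′ UTR regions, against 7.87% of intronic and 4.32% of promoter regions. The RFX motif (up to 1 mismatch) was found in 28 coding regions (2.23%) and 25 3′ UTR regions (2.11%), against 1.48% of intronic regions. Motifs of CpG-rich promoters were more frequent in coding than in intronic regions. The SP/KLF motif (GGGCGGG) was found in 11.7% of coding (95% Wilson interval 10.05 to 13.6%), 6.49% of 3′ UTR, 3.45% of intronic and 36.4% of promoter regions. Its share over all regions, 10.1%, lay inside the interval of coding regions. Read backwards it is the same motif, which leaves no such comparison for it. The NRF1 motif was found in 2.47% of coding, 0.590% of 3′ UTR, 0.184% of intronic and 5.89% of promoter regions, and in 1.48% of all. The ETS motif was found in 4.62% of coding and 1.25% of intronic regions, but read backwards in 9.24% and 4.60%.

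**Figure D4:**
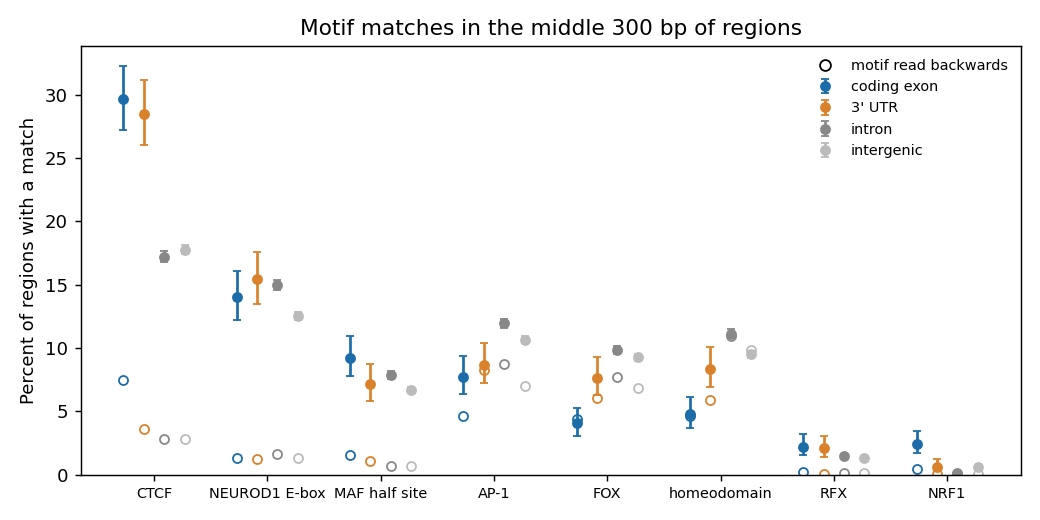
Percent of regions with a match to each of 8 motifs in their middle 300 bp (vertical axis), for regions in coding exons, 3′ UTRs, introns and intergenic sequence, with 95% Wilson intervals, and for the same motifs read backwards (open circles). CTCF stands at 29.6% and 28.5% in coding exons and 3′ UTRs against 17.2% in introns, while AP-1, forkhead and homeodomain matches in coding exons lie at 7.73%, 4.06% and 4.78%, below introns.

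The strongest 2 coding regions with an AP-1 match are shown with the match in capitals on the plus strand. They show that a match may lie beside the exon or inside it.
TMEM132D, a transmembrane protein, intron beside exon 3 (chr12:129531220-129531249): acgtgtgggtcTGAGTCAgctctggggaat
PLET1, an epithelial surface protein, exon 2, coding (chr11:112255511-112255540): cagaggcccgcTGAGTCActgttctcgtcc
The region at TMEM132D had a mean signal of 1288 and that at PLET1 987.4. Over coding regions, the median mean signal was 74.6 with an AP-1 match and 99.9 without, and it was 87.8 with a CTCF match and 101 without. In 3′ UTRs the order was the other way, with 105.6 and 91.3 for AP-1 and 97.4 and 89.2 for CTCF. Median widths with and without an AP-1 match were 393 and 516 bp in coding regions and 525 and 474 bp in 3′ UTRs. For CTCF they were 481.5 and 512 bp, and 476.5 and 480 bp. Only 97 coding and 103 3′ UTR regions held an AP-1 match. The part of width in these signals was not tested.

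Genes of beta cell function carried exonic regions more often than genes of the cell cycle. The lists were chosen with earlier results of these data known, so their shares are given as a description. Of 30 beta cell transcription factors, 8 (26.7%, 95% Wilson interval 14.2 to 44.4%) had at least 1, as had 14 of 70 genes of beta cell maturity (20%, 12.3 to 30.8%) and 38 of 193 genes of insulin secretion (19.7%, 14.7 to 25.9%), against 11.6% of all genes. The list of transcription factors shares genes with that of maturity and with that of homeobox genes. Homeobox genes had 18.4% (32 of 174) and genes of the p53 pathway 12.4% (23 of 186). Lower shares were found for genes of the type I interferon response (8.25%), the senescence-associated secretory phenotype, SASP (7.89%), interferon-stimulated genes (7.69%), cell cycle genes (5 of 91, 5.49%) and E2F targets (10 of 190, 5.26%). Zinc finger genes of the ZNF family had 3.4% and olfactory receptors 2.31%. Regions per Mb of exon, which take exon length into account, were 44.2 over all genes. They were 125.5 for the beta cell transcription factors (12 regions) and 93.9 for homeobox genes (38 regions). Genes of beta cell maturity had 74.4 (18 regions) and those of insulin secretion 63.7 (45 regions). No interval was computed for these densities, and several rest on few regions. Genes of the type I interferon response had 47.7 (10 regions) and SASP genes 43.4 (7 regions), both close to the value over all genes. Interferon-stimulated genes had 31.9, E2F targets 23.4, cell cycle genes 18.6 and ZNF genes 9.11. Of the genes with any open region in the transcript, 16.5% had an exonic one over all genes, 28.6% among the beta cell transcription factors and 8.47% among the cell cycle genes. Olfactory receptors, lowest by share of all listed genes, were highest on this measure, with 33.3% of the 27 that had any region.

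**Figure D5:**
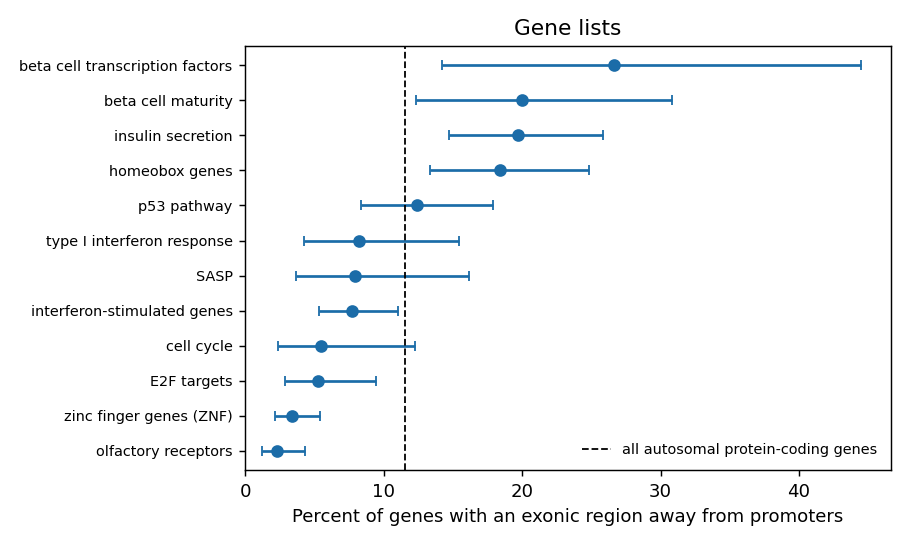
Percent of the genes of each list with an exonic region away from promoters (horizontal axis), with 95% Wilson intervals, for 12 gene lists. The dashed line marks the 11.6% of all autosomal protein-coding genes, and the lists run from 2.31% for olfactory receptors to 26.7% for beta cell transcription factors.

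Among the beta cell transcription factors, PDX1, the factor of pancreas formation and insulin expression, had a region of 666 bp over its coding exon 2 (chr13:27924097-27924763), with a mean signal of 296.8, and 1 of 234 bp in its 3′ UTR, with 81.7. NKX6-1, which keeps beta cell identity, likewise had 1 in coding exon 3 (chr4:84493290-84493648), with 81.4, and 1 in the 3′ UTR, with 77.6, which held an E-box of NEUROD1. PAX6, a factor of all endocrine islet cells, had 1 in coding exon 13, with 83.7, and 1 in coding exon 12, with 55.9. The regions of PDX1 and NKX6-1 lay in the last exon, and PAX6 has 14 exons.

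MNX1, a homeobox factor of beta cell development (chr7:157006341-157006937), had the strongest of this list, with 540.2, 2436 bp from a TSS and with a CTCF match. ST18, a zinc finger repressor, had 510.7 in its 3′ UTR and 58.2 in a coding exon. ESRRG, a nuclear receptor of oxidative metabolism, had 154.8, and MLXIPL, which encodes the glucose-responsive factor ChREBP, had 24.5. The other 22 factors of the list had no exonic region away from promoters.

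Of the other genes of beta cell maturity, HTT, which encodes huntingtin, had the strongest region, 1236 in its 3′ UTR (chr4:3239716-3241228). The prohormone convertase genes PCSK1 and PCSK2, whose products cut proinsulin, had 236.9 in the 3′ UTR and 166.4 in coding exon 10. SYT13, a synaptotagmin, had 200.1 in its 3′ UTR and 33.8 in a coding exon, and CACNA1C, a pore subunit of L-type calcium channels, had 56.8 in coding exon 43. TRAF3IP2 had 711.6, ARHGEF7 660.3, FYN 41.7, RFX2 27.7 and AACS 26.4. ELP4, whose introns hold enhancers of the neighbouring PAX6, had 338.8 in its 3′ UTR (chr11:31787055-31787836), 15799 bp from the nearest TSS. The signals of these genes thus ranged from far below to far above the median of all exonic regions, 94.3.

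In the other lists the strongest regions were those of GPER1, a G protein-coupled receptor for estrogen, among the genes of insulin secretion (1817, 3′ UTR), NLRC5, the activator of MHC class I genes, among those of the type I interferon response (827.5, coding exon 31), MMP9, a matrix protease, in SASP (590.6, coding exon 11), and FZD5, a Wnt receptor, among interferon-stimulated genes (523.8, 3′ UTR). TCHH had 1397 in the p53 list, GINS4 2755 among E2F targets, DTL, a ubiquitin ligase subunit of the S phase, 196.4 among cell cycle genes, ZNF771 1143 among zinc finger genes and OR4D1 555.9 among olfactory receptors. Between chromosomes, exonic regions per Mb of exon ranged from 34.4 on chromosome 18 to 68.2 on chromosome 22.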

How the data were processed

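The authors trimmed paired-end ATAC-seq reads with Trim Galore and Cutadapt, aligned them to hg38 with Bowtie2, removed duplicates with Picard, called peaks with MACS2 and counted reads per region, as far as the study's methods and the submitters' processing notes state. Of the deposited table, only region positions and the mean signal were used. This signal is the authors' mean, over all 6 libraries, of counts divided by DESeq2 size factors. It has no SD, and library depths are unknown from the table. The 5 other columns hold the authors' own comparison (log2 fold change, its standard error, Wald statistic, p-value and adjusted p-value) and were not used, so no test was run. A mean over both groups can hide a region open in 1 of them.

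Region coordinates are printed as the table gives them, and whether its starts count from 0 is not stated. Coordinates of sequences count from 1. Classes came from GENCODE 44 canonical transcripts, with a coding exon before a 3′ UTR before a 5′ UTR where they overlap. A midpoint in exons of several genes was given to the first by name. Sequence was read from hg38, and examples from 1 chromosome were not shown. Motifs were sought in the middle 300 bp on both strands. The steps were checked on simulated transcripts and sequences (Python 3.11.15, numpy 2.4.6, pandas 2.3.3, scipy 1.17.1). Shares carry 95% Wilson intervals and densities exact Poisson intervals.

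Named genes were, in each class, the 5 strongest regions and the weakest, the 5 genes with most regions, the strongest of each list and the 3 regions nearest the 2 kb limit on either side. For the 2 beta cell lists members were named except where not reported here, and some further genes were named after their values were seen. The gene lists were 8 sets of the study and 4 by symbol. Members and lists were chosen with earlier results of these data known. Alternatives were other windows, annotations, placements and minimum signals. The splits by GC content, by place along the transcript and by open motif matches were added after seeing the data.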

Additional observations from a re-analysis of the deposited data

How the results depend on the processing

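No paired analysis was possible because no value of a single library is given, and for the same reason no library could be left out and no other normalisation tried. Of 91 alternative values, 67 stayed within a ratio of 1.5 (counts) or within the 95% interval of the reported value, and 24 did not. These numbers do not measure stability. Signal per kb of width is another unit than signal per region, and intervals over few regions or genes are wide. Placing regions by the class of over 50% of their bases left 663 coding regions, or 27.5 per Mb, with a median mean signal of 65.7, and 6 in 5′ UTRs, or 18.9 per Mb. These densities were added after seeing the data. Every protein-coding transcript gave 41 regions in 5′ UTRs. With a mean signal of at least 50, there were 36.4 regions per Mb of coding exon and 26.9 per Mb of 3′ UTR, against 23.1 in introns, and their medians were 167.8 and 160.9, since weak regions were left out. Per kb of width the medians were 203.1 and 198.2. The share with a CTCF match in coding exons and 3′ UTRs was 8.84% and 12.7% with at most 1 mismatch (6.47% in introns), 22.0% and 21.5% in 200 bp (12.6%) and 37.1% and 35.7% in 500 bp (22.7%), and that with an AP-1 match in 500 bp was 12.4% and 14.7%. Of genes with any region in the transcript, 11.2% of interferon-stimulated genes, 27.1% of homeobox genes, 33.3% of olfactory receptors and 16.5% of all genes had an exonic one. The number of exonic regions lay between 1708 and 2840 under all 7 alternatives.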
